A study of Homo sapiens with 6 samples.

Results

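The genes described here encode the extracellular matrix that glioma cells lay down around themselves: fibronectin, collagen chains, laminin chains with their linker proteins the nidogens, matricellular glycoproteins such as tenascin-C and the thrombospondins, and proteins of elastic fibers. They were taken from a list of 50 gene symbols. A gene was represented by the probe set, mapped to that symbol alone, that had the highest mean over the 6 arrays. All 50 genes had such a probe set, from 135 probe sets in all. Affymetrix HG-U133 Plus 2 arrays measured the RNA of U251 cells, a long-established line grown from a human glioblastoma, which the labels name U251MG. Cells of 3 cultures grew on electrospun nanofibers of the polyester poly-caprolactone that were highly aligned, and cells of 3 cultures grew on such fibers in random orientation. Both groups shared the polymer, serum at 10% of the medium, 60 mm dishes and 24 h of culture before RNA collection, and neither received a further treatment. Cultures were independent by the series text, and the spread within a group therefore covers culture as well as array. The question is how far expression depends on the orientation of the fibers under the cells, here in a single cell line.

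Fibrillar collagens and fibronectin form the interstitial matrix, while type IV collagen, laminins and nidogens form basement membranes. Brain tissue holds little fibrillar collagen outside its vessels and membranes, and glioma cells are known to secrete fibronectin, tenascin-C, laminins and several collagens as substrates for adhesion and migration. Matricellular proteins such as SPARC, osteopontin and the thrombospondins act less as scaffold than as modulators of the contact between cell and matrix.

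Of the 50 genes, 40 passed a filter on low signal, which required at least 3 of the 6 arrays to lie above their own median over all probe sets. The other 10 were COL3A1, COL4A6, LAMA1, NID2, TNR, POSTN, CCN3, FBLN2, EMILIN1 and MATN2. Their probe sets stood on average between the 15.6th percentile of the array, for the matricellular protein periostin (POSTN), and the 48.1st, for the neural tenascin-R (TNR). Their differences between the groups, aligned minus random throughout, ranged from -0.38 log2 units in COL4A6 and MATN2 to 0.15 in COL3A1 and were not part of the main test. Levels of different genes are not compared, because probe sets differ in their response to RNA.

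The array aligned 3 lay apart from the others. Over the 40 matrix genes it differed from the random group mean by a root mean square of 0.64 log2 units, against 0.28 for aligned 2 and 0.26 for aligned 1. Over all 12381 genes tested these values were 0.38, 0.19 and 0.17. Aligned 3 held the lowest value of all arrays in 17 of the 40 matrix genes and the highest in 5, together 55% of them, against 60% over all genes tested. Random 3 was extreme nearly as often, lowest in 16 and highest in 4 of the matrix genes, together 50% against 43.7% over all genes. Differences are therefore given with and without aligned 3, and without other arrays where leaving them out moved a value by more than 1.5 times. Signal from 18S ribosomal RNA was highest on aligned 3, at 9.78, and lowest at 8.40 on another array. The 3' minus 5' signal of GAPDH lay between 0.08 and 0.16 log2 units on all arrays. Of 8 markers of glioma and astrocyte identity, 5 passed the filter, and all 5 had a negative difference, with a median of -0.24 log2 units (-0.09 without aligned 3). GFAP differed by -0.81 (-0.69 without aligned 3), SOX2 by -0.44 (-0.22), NES by -0.24 (-0.09), CD44 by -0.11 (-0.06) and VIM by -0.09 (-0.04). S100B, AQP4 and OLIG2 stayed below the filter, and S100B read 4.97, 4.69 and 4.04 on aligned and 5.73, 5.76 and 5.60 on random fibers. Of 6 fibroblast markers THY1, PDGFRA, PDGFRB and DCN passed and LUM and FAP did not, and the summed level of all 6 divided by 6 lay between 5.71 and 6.49 on aligned and between 6.55 and 6.66 on random fibers. Of the 4 that passed, 1 had a positive and 3 a negative difference, with a median of -0.34 (-0.14 without aligned 3). THY1 read 10.27, 9.70 and 9.01 on aligned and 10.46, 10.22 and 10.27 on random fibers. PDGFRA, a receptor that glial cells also express, read 9.43, 8.77 and 5.95 on aligned 1 to 3 and between 9.87 and 10.13 on random fibers. Of 6 endothelial markers 3 passed, with mean levels of 5.02 to 5.29 on aligned and 5.00 to 5.17 on random fibers. Of 6 immune markers 4 had a probe set and 2 of these passed, with mean levels of 5.14 to 5.17 on aligned and 4.93 to 5.08 on random fibers. The part of RNA quality, of array aligned 3 or of other cell types in the results below was not tested, beyond the values given without that array. The arrays read RNA of whole cultures, so fewer expressing cells and less RNA per cell cannot be told apart.

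None of the 40 matrix genes passed limma's test at an adjusted p of 0.05, with Benjamini-Hochberg adjustment over 12381 genes. The share called over all genes was 0%, with a lowest adjusted p of 0.463. The following differences are thus measured values and not calls. At an unadjusted p under 0.05 there were 7 matrix genes, 2 higher and 5 lower on aligned fibers, where 10.5% of all genes reached that level, with 4.72% of all genes higher and 5.81% lower. The 2 higher genes are 5% of the 40 and the 5 lower genes 12.5%. Without aligned 3 there were 4 matrix genes (10%) where 6.58% of all genes reached the level, 1 of them higher (background 2.9%) and 3 lower (background 3.68%). Without random 2 there were 2 matrix genes (5%) where 5.97% of all genes reached the level. Without random 3 there were 6 (15%, against 5.04% of all genes), and NID1 alone of the 7 was among them. With the replicate number as a block, 10 matrix genes reached it (background 13.6%), of which 1 was higher (background 6.32%) and 9 were lower (background 7.3%). Of the 40 genes 16 had a positive and 24 a negative difference, whereas 52.5% of all genes were positive. The median difference was -0.04 log2 units over the matrix genes and 0.01 over all genes. In 8 matrix genes, or 20%, the groups did not overlap, against 18% of all genes. The aligned group was the upper in 2 of them, against 8.71% of all genes, and the lower in 6, against 9.33%. In 13 of the 40 genes, or 32.5%, the difference was negative between each pair of arrays of the same number, against 22% of all genes, and in 4, or 10%, it was positive in each, against 23.1%.

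**Figure D1:**
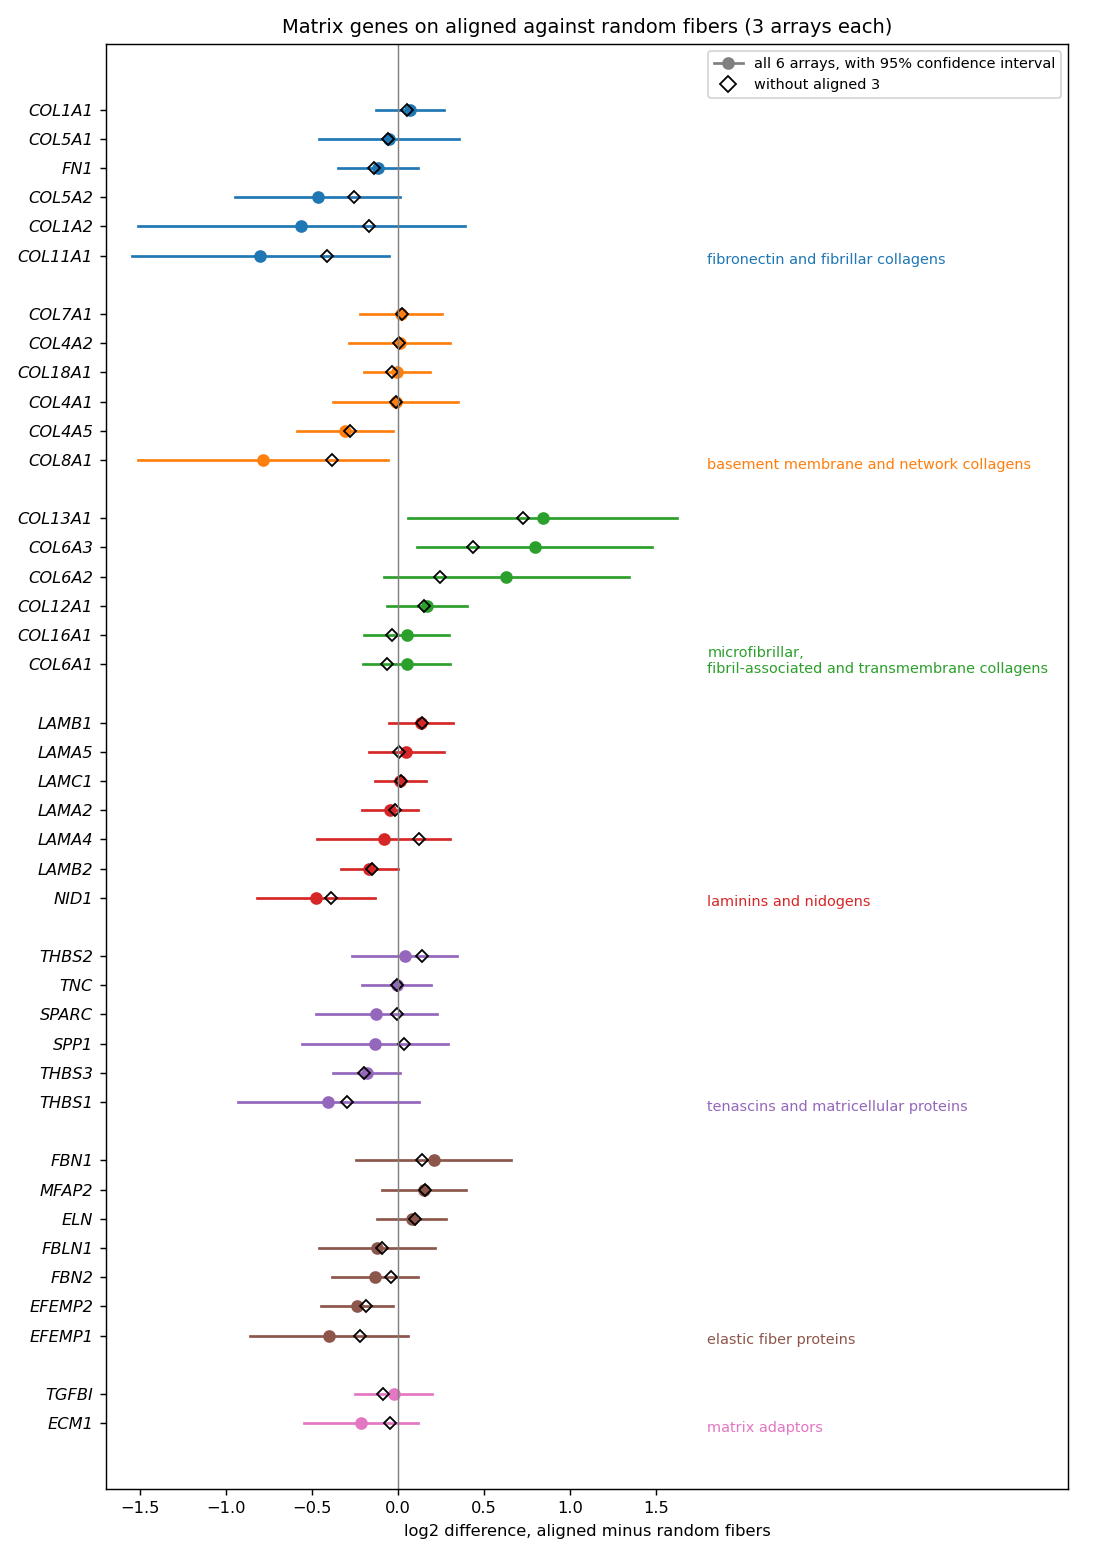
Log2 difference between aligned and random fibers (horizontal axis) for the 40 matrix genes that passed the filter (rows), coloured by role; filled circles with lines are the differences over all 6 arrays with limma's 95% confidence interval, and open diamonds the difference without the array aligned 3. Most circles lie near 0, COL13A1, COL6A3 and COL6A2 lie farthest to the right at 0.84, 0.79 and 0.63, and COL11A1 and COL8A1 lie farthest to the left at -0.80 and -0.78.

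The microfibrillar, fibril-associated and transmembrane collagens included the largest positive differences among the matrix genes. This group holds the chains of type VI collagen, which forms beaded microfilaments around cells, the fibril-associated collagens XII and XVI, and the transmembrane collagen XIII. All 6 genes passed the filter and had a positive difference, with a median of 0.40 log2 units and a range from 0.05 to 0.84. Without aligned 3 the median was 0.20 and 4 of the 6 differences were positive. The medians between arrays of the same number were -0.004, 0.27 and 0.93 for the numbers 1, 2 and 3.

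COL6A3, the longest chain of type VI collagen, read 8.46, 8.73 and 9.68 on aligned 1 to 3 and 8.37, 8.17 and 7.95 on random 1 to 3. The groups did not overlap, although aligned 1 and random 1 lay close together and aligned 3 stood well above the rest. The difference was 0.79 ± 0.29 log2 units (SE), or 1.73-fold, with an adjusted p of 0.463 in limma. It was 0.43 without aligned 3. Before adjustment, p in limma was 0.0285 without the replicate block and 0.0569 with it. COL6A2 read 9.46, 9.47 and 10.63 on aligned and 9.46, 9.09 and 9.12 on random fibers. Here aligned 3 alone was high, and aligned 1 equalled random 1 to 2 decimals. The difference was 0.63 ± 0.30 (SE, limma adjusted p = 0.486) and 0.24 without aligned 3. COL6A1, the third chain, read 10.64, 10.70 and 11.01 on aligned and 10.78, 10.71 and 10.71 on random fibers, and its difference of 0.05 turned to -0.06 without aligned 3.

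The 250 bases before the start sites of COL6A2 and COL6A3 are shown because these chains of a common protein both read higher on aligned fibers. They come from RefSeq on GRCh38.p14, COL6A2 at chr21:46097862-46098111 on the plus strand and COL6A3 at chr2:237414165-237414414 on the minus strand, each written 5′ to 3′ on the strand of the gene. Capitals mark matches, on either strand, to the letters GGGCGG of a GC box. They also mark CCAAT, the motif of that name. A TATA box was searched as TATAAA. An AP-1 site was searched as TGANTCA.
COL6A2: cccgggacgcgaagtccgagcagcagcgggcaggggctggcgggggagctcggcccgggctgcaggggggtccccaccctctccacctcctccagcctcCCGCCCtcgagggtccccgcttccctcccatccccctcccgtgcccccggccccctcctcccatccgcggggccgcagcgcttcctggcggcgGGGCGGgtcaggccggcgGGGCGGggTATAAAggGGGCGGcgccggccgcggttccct
COL6A3: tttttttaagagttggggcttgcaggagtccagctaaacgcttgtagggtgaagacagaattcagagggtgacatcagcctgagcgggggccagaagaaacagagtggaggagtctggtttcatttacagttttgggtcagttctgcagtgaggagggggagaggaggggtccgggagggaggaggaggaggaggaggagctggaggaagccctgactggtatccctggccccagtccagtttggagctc
The COL6A2 stretch held 4 GC box matches and 1 TATA box match and had 79.6% G and C. The COL6A3 stretch held no match to any of the 4 motifs and had 56% G and C. The motif matches do not overlap each other. Of the 50 matrix genes 37 had an entry in the promoter table, with 43 windows, of which 30 (69.8%) held a GC box, 11 (25.6%) a CCAAT box, 7 (16.3%) a TATA box and 3 (6.98%) an AP-1 site in the 250 bases before the start. Over all 35116 windows the shares were 42.6%, 32%, 10.7% and 6.57%. These are matches of letters and say nothing about binding.

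COL13A1 encodes a collagen that spans the plasma membrane and takes part in cell adhesion. It read 9.0, 8.22 and 8.94 on aligned and 8.58, 7.74 and 7.32 on random fibers. The groups overlapped, since random 1 exceeded aligned 2, but within each number the aligned array was higher, by 0.42, 0.48 and 1.63. The difference of 0.84 ± 0.34 (SE, limma adjusted p = 0.472) was 0.73 without aligned 3. It depended more on the random arrays, with 0.56 without random 3 and 1.19 without random 1. Its other kept probe sets gave smaller differences of 0.25 and 0.40. COL12A1, which decorates fibrils of type I collagen, read 9.71, 9.93 and 9.87 on aligned and 9.72, 9.78 and 9.52 on random fibers, a difference of 0.17 ± 0.10 (SE), or 0.089 without random 3. COL16A1 differed by 0.05 ± 0.11 and by -0.03 without aligned 3.

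**Figure D2:**
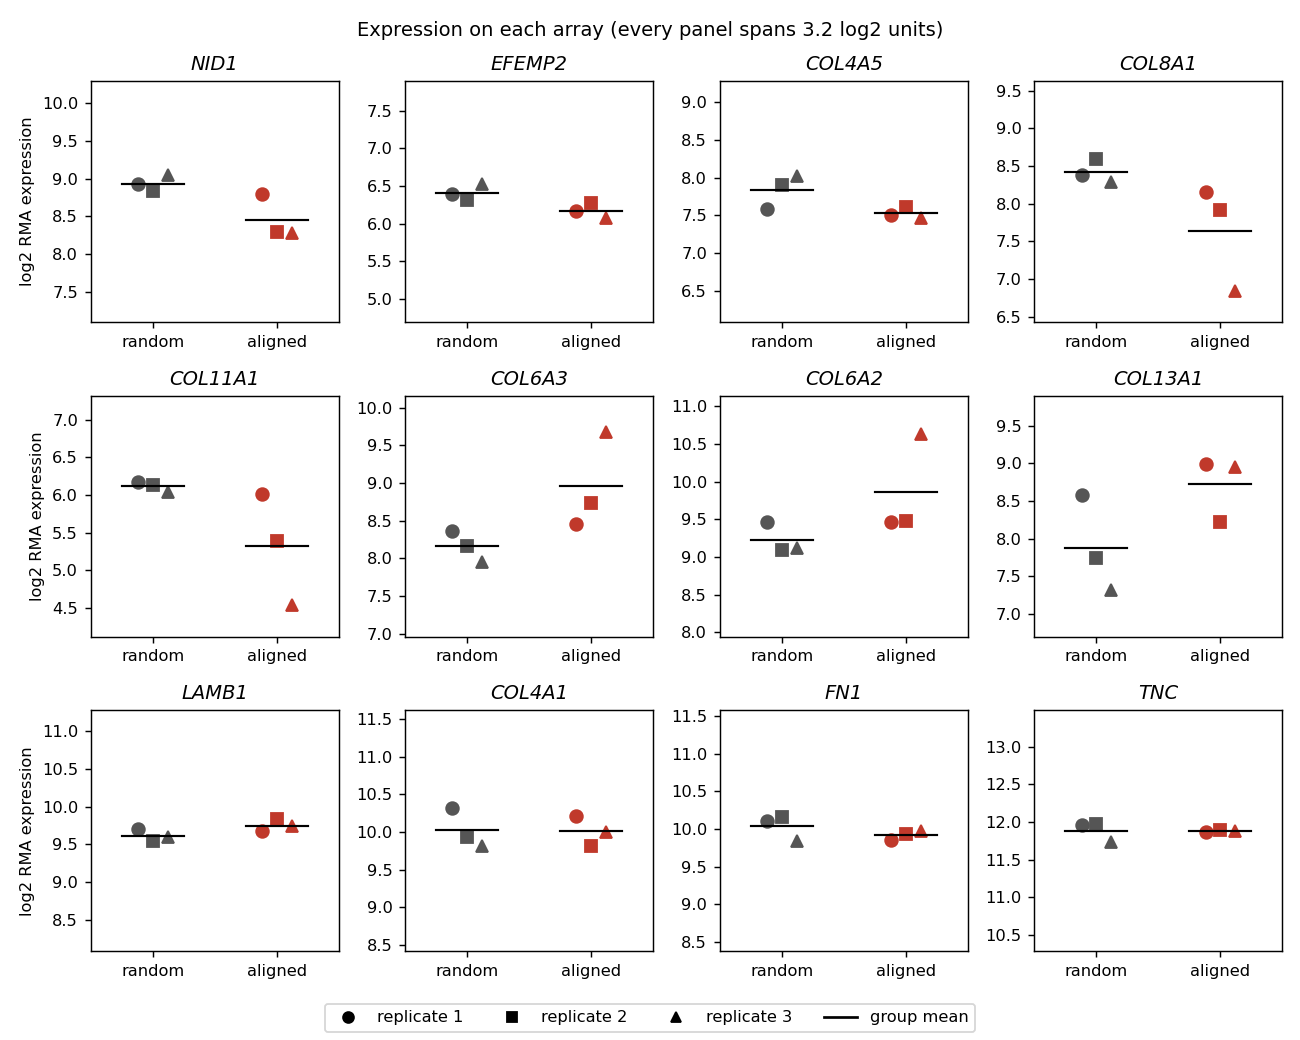
Expression of 12 matrix genes in log2 RMA units (vertical axis, 3.2 units in every panel) on random and aligned fibers; each symbol is the array of a culture, its shape gives the replicate number, and the bar is the group mean. In COL6A3, COL6A2, COL8A1 and COL11A1 the array aligned 3 lies farthest from the random arrays, whereas in LAMB1, COL4A1, FN1 and TNC the groups overlap.

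Fibronectin and the fibrillar collagens read lower or near equal on aligned fibers. Of 7 genes 6 were tested, and 5 of these had a negative difference, with a median of -0.29 log2 units that was -0.16 without aligned 3. COL11A1, a minor chain that helps to set fibril diameter, read 6.01, 5.39 and 4.55 on aligned and 6.18, 6.14 and 6.04 on random fibers. The random arrays lay within 0.14 of each other, and the aligned arrays lay below them and far apart. The difference was -0.80 ± 0.32 (SE, limma adjusted p = 0.472) and -0.42 without aligned 3. The gene stood close to the filter, with 4 of 6 arrays above their median.

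COL5A2, a chain of type V collagen, which nucleates fibrils of type I, read 9.93, 9.46 and 9.07 on aligned and 10.14, 9.88 and 9.83 on random fibers. Aligned 1 lay within the random values and the other aligned arrays below them. Its difference was -0.47 ± 0.21 (SE, limma adjusted p = 0.474) and -0.26 without aligned 3. COL1A2, a chain of type I collagen named beside its partner COL1A1, read 11.65, 10.67 and 9.98 on aligned and 11.84, 11.07 and 11.07 on random fibers. The aligned arrays spread widely and overlapped the random ones, and the difference was -0.56 ± 0.41 (SE, limma adjusted p = 0.593), or -0.17 without aligned 3. Without aligned 1 the unadjusted p of COL1A2 in limma was under 0.05, as in 20.1% of all genes, so the result depended on that array too. Between arrays of the same number COL1A2 was lower on aligned fibers each time, by values of -0.19, -0.40 and -1.09, and its unadjusted p was 0.207 in limma without the replicate block and 0.0297 with it.

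COL1A1 differed little, with 7.87, 7.68 and 7.82 on aligned and 7.81, 7.72 and 7.64 on random fibers. Its difference of 0.07 ± 0.08 (SE) ranged from 0.026 without random 3 to 0.12 without aligned 2 and turned to -0.07 when all its kept probe sets were averaged. The probe set that stands for COL1A1 carries the suffix for sequence shared with other transcripts, and the 4 kept probe sets ranged from -0.29 to 0.07. Fibronectin itself (FN1), the main adhesive glycoprotein of this matrix, read 9.85, 9.93 and 9.97 on aligned and 10.10, 10.16 and 9.84 on random fibers. The groups overlapped through random 3. The difference was -0.12 ± 0.10 (SE), with a 95% confidence interval from -0.35 to 0.11, and its 4 kept probe sets lay between -0.18 and -0.12. It was -0.21 without random 3 and -0.055 without random 2.

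The chains of a common protein were set against each other for 7 pairs, chosen after their values were seen. The difference between the chains was taken on each array and averaged over the arrays of each group. With 3 arrays a group the smallest p that an exact permutation test can give is 0.1, so these values are a description. COL6A3 relative to COL6A1 was 0.74 higher on aligned fibers and 0.50 higher without aligned 3. COL6A2 relative to COL6A1 was 0.58 higher and 0.31 higher without aligned 3. Between arrays of the same number these values were 0.23, 0.58 and 1.43 for COL6A3 and 0.14, 0.39 and 1.2 for COL6A2. COL6A3 relative to COL6A2 differed by 0.16. COL1A2 relative to COL1A1 had a value of -0.63 and COL5A2 relative to COL5A1 of -0.41, which became -0.22 and -0.20 without aligned 3. LAMC1 relative to LAMB1 had a value of -0.12.

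**Figure D3:**
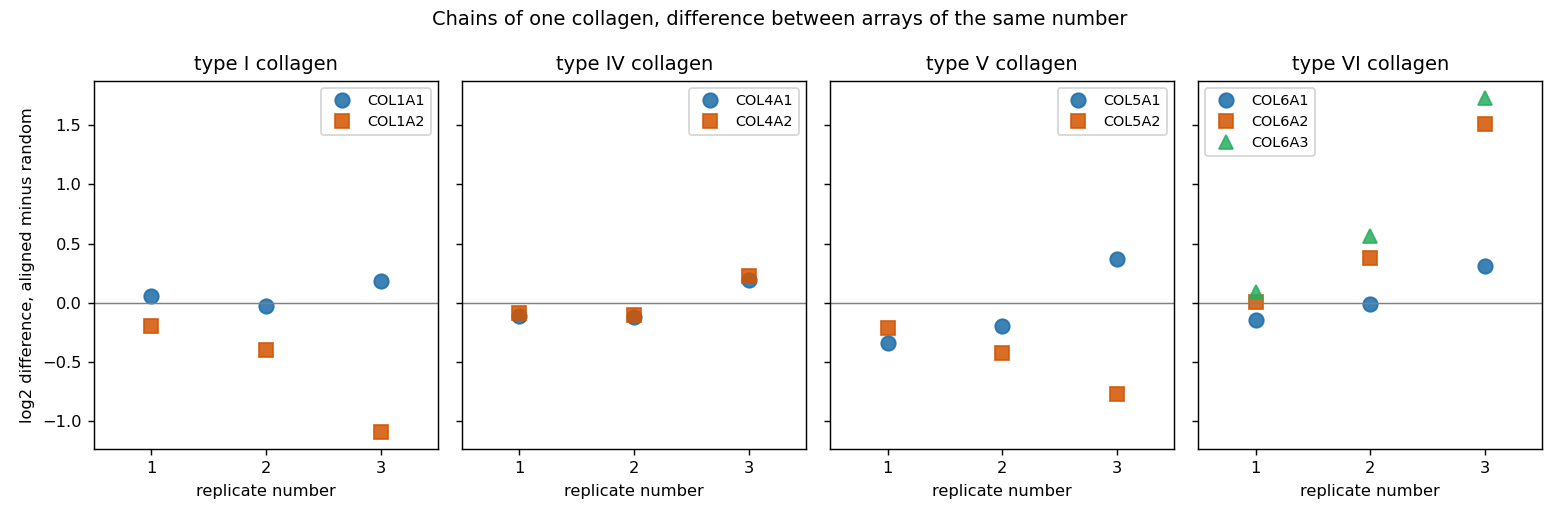
Log2 difference between the aligned and the random array of the same replicate number (vertical axis) for chains of collagens I, IV, V and VI; each symbol is a chain and the horizontal axis gives the replicate number, which has no order. The chains of type IV collagen lie on top of each other at each number, while COL1A2 and COL1A1 lie at -1.09 and 0.18, and COL6A3 and COL6A1 at 1.73 and 0.31, for number 3.

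Type IV collagen, the network collagen of basement membranes, had the smallest difference between chains of the 7 pairs. COL4A1 read 10.21, 9.81 and 10.01 on aligned and 10.32, 9.93 and 9.81 on random fibers. COL4A2 read 10.81, 10.54 and 10.70 on aligned and 10.90, 10.65 and 10.47 on random fibers. In both, replicate 1 was the highest array of its group on either substrate. The differences were -0.01 ± 0.16 and 0.01 ± 0.13 (SE), with 95% confidence intervals from -0.38 to 0.35 and from -0.28 to 0.30. COL4A2 relative to COL4A1 differed by 0.02 between the groups, and the arrays of the same number differed by -0.11, -0.12 and 0.19 in COL4A1 and by -0.09, -0.11 and 0.23 in COL4A2.

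COL4A1 and COL4A2 are neighbours on chromosome 13 and are transcribed away from each other, from start sites 126 bases apart. The stretch between these start sites is shown because it lies before both genes. It is written on the plus strand, the strand of COL4A2, from RefSeq on GRCh38.p14 at chr13:110307158-110307283, with matches to the motifs named above in capitals.
COL4A1 and COL4A2: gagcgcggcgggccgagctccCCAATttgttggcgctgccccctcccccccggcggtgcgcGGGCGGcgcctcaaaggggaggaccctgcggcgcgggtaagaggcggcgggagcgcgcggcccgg
It held 1 CCAAT box match and 1 GC box match, no TATA box match and 80.2% G and C. COL4A5 and COL4A6 form a like pair on chromosome X with 379 bases between start sites. COL4A6 stayed below the filter, with 4.16, 4.28 and 3.94 on aligned and 4.24, 4.65 and 4.63 on random fibers. COL4A5 read 7.51, 7.61 and 7.47 on aligned and 7.58, 7.91 and 8.03 on random fibers. The aligned arrays lay close together, and random 1 lay among them. The difference in COL4A5 was -0.31 ± 0.12 (SE, limma adjusted p = 0.472) and -0.28 without aligned 3, so it was nearly as large without that array. It depended more on the random arrays, with -0.44 without random 1 and -0.21 without random 3.

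Of the other network collagens, COL8A1, a short-chain collagen known from vessel walls and from Descemet's membrane of the eye, had the most negative difference. It read 8.15, 7.92 and 6.84 on aligned and 8.38, 8.60 and 8.29 on random fibers. The groups did not overlap, and aligned 3 stood far below the rest. The difference was -0.78 ± 0.31 (SE, limma adjusted p = 0.472), or 1.72-fold higher on random fibers, and -0.39 without aligned 3. COL7A1 of anchoring fibrils and COL18A1, the source of endostatin, differed by 0.02 ± 0.10 and -0.01 ± 0.08. Over the 6 tested genes of this group the median was -0.01.

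The laminins, the cross-shaped heterotrimers of basement membranes, differed little, and the linker nidogen-1 differed more. Of 9 genes 7 were tested, 3 with a positive and 4 with a negative difference and a median of -0.05. NID1, which ties the laminin network to type IV collagen, read 8.79, 8.29 and 8.28 on aligned and 8.93, 8.83 and 9.04 on random fibers. All aligned arrays lay below all random arrays, with aligned 1 close to random 2. The difference was -0.48 ± 0.15 (SE), with a 95% confidence interval from -0.82 to -0.14 and 1.39-fold higher on random fibers. Its unadjusted p of 0.0127 was the lowest among the matrix genes in limma, with an adjusted p of 0.463. It stayed under 0.05 before adjustment in 14 of 16 other settings, among them each of the 6 with an array left out. The exceptions were the mean of all kept probe sets, with a difference of -0.27, and the ordinary two-sample test. These settings reuse the same arrays and are no independent support. Without aligned 3 the difference was -0.39. The other kept probe sets of NID1 gave -0.29 and -0.04.

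LAMB1, a beta chain of the laminins first described, read 9.67, 9.83 and 9.74 on aligned and 9.70, 9.54 and 9.60 on random fibers, a difference of 0.13 ± 0.08 (SE). LAMB2, the beta chain of synaptic and vascular laminins, read 7.98, 7.89 and 7.89 on aligned and 8.10, 8.13 and 8.02 on random fibers. These groups were tight and did not overlap, with a difference of -0.17 ± 0.07 (SE, limma adjusted p = 0.472) and -0.15 without aligned 3. LAMC1, the gamma chain shared by most laminins, varied least of the 40 genes, with all arrays between 10.96 and 11.00 and a difference of 0.01 ± 0.06. Among the alpha chains, which carry most cell-binding sites, LAMA5 read 8.90, 8.81 and 8.99 on aligned and 8.99, 8.83 and 8.73 on random fibers, an overlapping 0.05 ± 0.09. The difference in LAMA5 was 0.006 without aligned 3. LAMA2 differed by -0.05 ± 0.07. LAMA4 differed by -0.08 ± 0.17 and turned to 0.12 without aligned 3.

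Tenascin-C and the other matricellular proteins had differences near 0 or below. Of 9 genes 6 were tested, 5 with a negative difference, and the median was -0.13, or -0.004 without aligned 3. TNC, a glycoprotein abundant in glioma stroma, read 11.87, 11.90 and 11.88 on aligned and 11.96, 11.97 and 11.73 on random fibers. Its difference of -0.01 ± 0.09 (SE) had a 95% confidence interval from -0.21 to 0.19, and its other kept probe set gave -0.17. SPARC, a collagen-binding modulator of adhesion, read 12.50, 12.22 and 11.99 on aligned and 12.59, 12.29 and 12.21 on random fibers. Its difference was -0.13 ± 0.15 and -0.003 without aligned 3. It was -0.014 without random 1, -0.26 without aligned 1 and -0.20 without random 3. Osteopontin (SPP1), an integrin ligand, differed by -0.13 ± 0.18 and by 0.03 without aligned 3. With aligned 1 left out instead, its unadjusted p in limma was under 0.05, as in 20.1% of all genes.

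The thrombospondins, modulators of adhesion and of angiogenesis, did not differ alike. THBS1 read 9.40, 9.57 and 9.15 on aligned and 9.89, 10.18 and 9.28 on random fibers. Within each number the aligned array was lower, by values of -0.49, -0.61 and -0.12, while the groups overlapped through random 3. The difference was -0.41 ± 0.22 (SE, limma adjusted p = 0.511) and -0.29 without aligned 3. It was -0.21 without random 2 and -0.66 without random 3. Its unadjusted p was 0.112 in limma without the replicate block and 0.0153 with it, and its 4 kept probe sets lay between -0.41 and -0.36. THBS3 read 7.78, 7.83 and 7.86 on aligned and 7.95, 8.14 and 7.92 on random fibers, all lower on aligned fibers, with a difference of -0.18 ± 0.08 (SE, limma adjusted p = 0.474) that was -0.11 without random 2. THBS2 differed by 0.04 ± 0.13 and by 0.14 without aligned 3.

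Elastic fiber genes differed in both directions. Of 9 genes 7 were tested, 3 with a positive difference and 4 with a negative difference, and the median was -0.12. EFEMP2 (fibulin-4), which is needed for the crosslinking of elastin, read 6.18, 6.28 and 6.07 on aligned and 6.40, 6.32 and 6.53 on random fibers. The groups were narrowly apart, with a difference of -0.24 ± 0.09 (SE, limma adjusted p = 0.466) and -0.19 without aligned 3. Before adjustment, p for EFEMP2 in limma was 0.0311 without the replicate block and 0.0599 with it. EFEMP1 (fibulin-3), a matrix protein secreted by glioma cells, read 11.41, 10.91 and 10.62 on aligned and 11.59, 11.27 and 11.27 on random fibers. Its difference was -0.40 ± 0.20 (SE, limma adjusted p = 0.486) and -0.22 without aligned 3 or -0.62 without aligned 1, and its unadjusted p was 0.078 in limma without the replicate block and 0.0128 with it.

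FBN1, the main fibrillin of microfibrils, read 8.22, 7.86 and 8.25 on aligned and 8.32, 7.78 and 7.60 on random fibers, a difference of 0.21 ± 0.19 (SE) with overlapping groups. It was 0.42 without random 1, 0.33 without aligned 2, 0.14 without aligned 3 and 0.058 without random 3. MFAP2, a microfibril-associated glycoprotein, read 5.96, 5.66 and 5.80 on aligned and 5.72, 5.74 and 5.51 on random fibers, a difference of 0.15 ± 0.11, or 0.075 without aligned 1 and 0.078 without random 3. Elastin (ELN) read 6.05, 5.85 and 5.89 on aligned and 5.76, 5.93 and 5.86 on random fibers, a difference of 0.08 ± 0.09, or 0.02 without aligned 1 and 0.035 without random 1. FBN2, a fibrillin of developing tissue, differed by -0.13 ± 0.11, or -0.04 without aligned 3, and fibulin-1 (FBLN1) by -0.12 ± 0.14. Of the adaptor proteins TGFBI, a TGF-beta-induced ligand of integrins, differed by -0.03 ± 0.10 and by -0.09 without aligned 3. ECM1 differed by -0.21 ± 0.14, which was -0.05 without aligned 3.

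Several probe sets of a gene mostly had the same sign. Of 25 matrix genes with more than a single kept probe set, all kept probe sets had the sign of the chosen one in 22. The exceptions were COL1A1, COL4A2 and COL18A1, whose chosen probe sets lay near 0. The kept probe sets of COL1A1 disagreed more widely, from -0.29 to 0.07. COL1A2 had values of -0.61 to -0.49 over 3 kept probe sets, COL5A2 of -0.47 to -0.43 over 2 and COL6A2 of 0.45 to 0.63 over 2. Probe sets of a gene share the RNA of the same arrays, so they are no replicates of the condition.

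**Figure D4:**
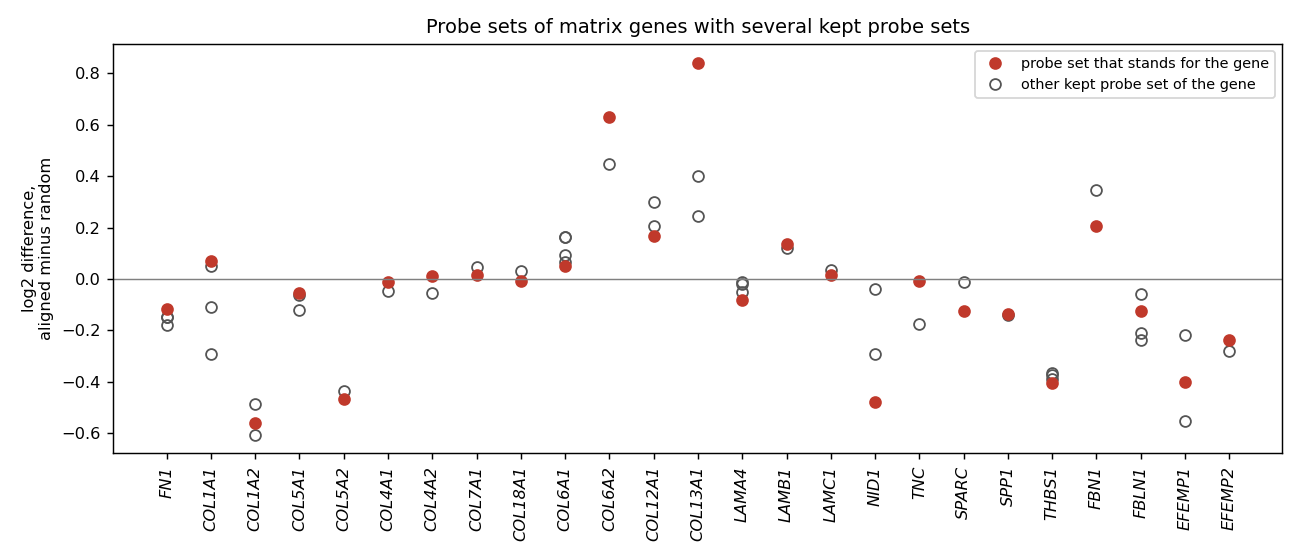
Log2 difference between aligned and random fibers (vertical axis) of each kept probe set of the 25 matrix genes with several kept probe sets (horizontal axis); red points are the probe sets that stand for the gene and open points the others. The points of COL1A2, COL5A2 and THBS1 lie close together below 0, while those of COL13A1 spread from 0.25 to 0.84 and those of NID1 from -0.48 to -0.04.

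Genes around the matrix were read from lists of collagen synthesis, of matrix receptors, of other collagen chains and of other basement membrane genes. In none of these lists did a gene pass limma at the adjusted threshold. Of 31 genes of collagen synthesis and secretion 26 were tested, 8 with a positive and 18 with a negative difference and a median of -0.13, where 52.5% of all genes were positive. At an unadjusted p under 0.05 there were 1 higher and 4 lower genes of the 26, where 4.72% of all genes were higher and 5.81% lower. The lysyl oxidase LOX, which crosslinks collagen and elastin, differed by -0.40 ± 0.11 (SE), and the lysyl hydroxylases PLOD1 and PLOD2 by -0.28 ± 0.08 and -0.30 ± 0.10. The prolyl hydroxylase subunit P4HA3 differed by 0.33 ± 0.10. PLOD1 was as large without aligned 3, at -0.28, and P4HA3 too, at 0.34, while LOX was at -0.31 and PLOD2 at -0.22.

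Of 31 matrix receptors 23 were tested, 13 with a positive and 10 with a negative difference and a median of 0.02, where 52.5% of all genes were positive. At an unadjusted p under 0.05 there were 4 higher and 3 lower genes of the 23, against the same 4.72% and 5.81% of all genes. DDR2, a receptor kinase for fibrillar collagens, differed by 0.79 ± 0.21 (SE) and by 0.60 without aligned 3. ANTXR2, which binds laminin and type IV collagen, differed by 0.56 ± 0.11 and by 0.44 without aligned 3. The integrin subunits ITGAV and ITGB4, parts of receptors for fibronectin and for laminin, differed by -0.35 ± 0.12 and -0.85 ± 0.29, and by -0.22 and -0.48 without aligned 3. Other integrin subunits differed in the other direction, among them ITGA5 by 0.36 ± 0.15 and ITGA3 by 0.29 ± 0.10. Without aligned 3 these were at 0.23 and 0.22. Of 25 other collagen chains 24 had a probe set and 7 were tested. COL9A3 of type IX collagen differed by -1.20 ± 0.35 (-0.83 without aligned 3), COL21A1 by -0.70 ± 0.26 (-0.51), COL11A2 by 0.25 ± 0.10 (0.26) and COL5A3 by 0.17 ± 0.10 (0.16). Of 8 other laminin chains and basement membrane genes 3 were tested, and LAMB3, AGRN and HSPG2 differed by 0.13 ± 0.10, 0.02 ± 0.10 and -0.04 ± 0.10.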

How the data were processed

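Total RNA of 6 U251 cultures was hybridised to 1 array each. The authors deposited a single table of log2 signals, with a row for each probe set. Per the submitters' processing notes these come from RMA, whose version and options are not stated in what was used here. Scanner files were not used here. Groups and replicate numbers came from the sample titles. The 62 control probe sets were set aside. Of the remaining 54613, 41091 had 1 gene symbol in the platform annotation, 1801 several and 11721 none, and symbols were updated by gene identifier. Probe sets were kept when at least 3 arrays exceeded their own median, and a gene was represented by its kept probe set with the highest mean, which gave 12381 genes. limma 3.58.1 (lmFit, then eBayes; R 4.3.3) estimated aligned minus random, two-sided, with Benjamini-Hochberg adjustment over all genes. The number of arrays limits the precision. The code was tested on simulated data. Figures used matplotlib 3.10.9.

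The members and lists were chosen with earlier results of these data known. Values on every array are given for the 10 members with the smallest unadjusted p in each direction, for FN1, COL1A1, COL4A1, LAMB1, TNC, SPARC and FBN1, and for partners of gene pairs with adjacent start sites. COL1A2 and COL6A1 were added after their values were seen, as were the comparisons of chain pairs. Of each other list the up to 4 genes with the smallest unadjusted p are named. ITGA3 and ITGA5 were added after their values were seen.

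Replicate numbers occur in both groups without a statement of what they share. Deviations from the group means correlated by 0.369, 0.322 and 0.109 between arrays numbered 1, 2 and 3, above the limit of 0.1 set for taking the numbers as pairs, although aligned 2 and random 3 correlated by 0.188. The pairing thus rests on the values. Alternatives were the replicate number as a block, other filters, scalings, priors, array weights, probe set choices, an ordinary two-sample test and each array left out.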

Additional observations from a re-analysis of the deposited data

How the results depend on the processing

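No matrix gene passed an adjusted p of 0.05 in limma in 15 of 16 other settings. The exception was array weights, with 10 matrix genes and 2101 genes in all, and 16 matrix genes and 4326 genes at an unadjusted p under 0.05. The weights were 15.2 for aligned 2 and 0.245 for aligned 3, and their estimation ended with a convergence warning. With the replicate number as a block, 10 matrix genes and 1687 genes in all had an unadjusted p under 0.05, against 7 and 1303 without it, 5 of the 7 among the 10, and the block changed no call at the adjusted threshold. The ordinary two-sample test gave 835 genes and 1 matrix gene (LAMB2), with 0 past the adjusted threshold, and the filter at the 75th percentile 851 genes. Repeated quantile normalization left 5 matrix genes with separated groups, against 8. The share over all genes under that normalization is not given, so the change cannot be read as particular to the matrix genes. With each array left out in turn, genes at the unadjusted level ranged from 624 (random 3 left out) to 2491 (aligned 1 left out). They numbered 815 when aligned 3 was left out and 739 for random 2. Matrix genes at that level ranged from 2 (random 2, 5% of 40 against 5.97% of all genes) to 9 (aligned 1, 22.5% against 20.1%). Those with separated groups ranged from 9 (random 2, 22.5% of 40 against 26.4% of all genes) to 15 (aligned 1, 37.5% against 40.2%). Separation comes more easily with fewer arrays. The median of the matrix genes ranged from -0.11 (random 3) to -0.0023 (random 1). Without the filter, 9 of 50 matrix genes and 1858 of 19775 genes in all had an unadjusted p under 0.05 in limma. COL4A6 and COL5A2 were newly among the 9. The other probe sets of COL4A6 differed by 0.02 and 0.15, against -0.38 for the chosen one, and all of them lay below the filter.

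Of 384 values of 25 named matrix genes under other settings, 369 kept the direction. This count is no measure of stability, because several settings could not change a difference. The replicate block, the other filters, the trended prior and the ordinary test alter only the error or the genes tested. Outside the 25, COL6A1, COL16A1, LAMA4 and SPP1 changed sign without aligned 3. The 15 reversed values belonged to genes with differences of 0.15 log2 units or less in size. With array weights MFAP2 was at -0.0315, ELN at -0.0305, COL1A1 at -0.0332, LAMA5 at -0.0338 and COL4A2 at -0.12. With the mean of kept probe sets COL1A1 was at -0.0703 and COL4A2 at -0.0214. With each array left out, LAMA5 ranged from -0.0097 (random 3) to 0.119 (random 1), COL4A1 was at 0.09 (aligned 2) and 0.14 (random 1), TNC ranged from -0.0848 (random 3) to 0.0332 (random 2) and was above 0 for random 1 too, and COL4A2 ranged from -0.0917 (random 3) to 0.124 (random 1), with values below 0 for aligned 1 and random 2. The causes were not tested. How far a probe set stood above background could not be judged beyond its rank on the array.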
